A study of Mus musculus with 8 samples.

Results

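The genes described here are 10 regulators of apoptosis from the BCL-2 family: Bcl2, Bcl2l1, Mcl1, Bax, Bak1, Bid, Bcl2l11, Pmaip1, Bad and Bmf. A gene belonged to the group if the transcript that the array's design gives for a probe maps to its symbol. All 10 were found, as 14 probes, among 22460 genes tested. Each of 6 members had 1 probe and each of 4 had 2 probes. All 14 probes were well above background on all 8 arrays, so the filter for dim probes removed no member. The filter does set how many genes the p-values are adjusted over, and the call of Pmaip1 below depends on it.

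BCL-2 family proteins decide whether the outer mitochondrial membrane is breached during apoptosis. The guardians hold the effectors Bax and Bak1 in check, and the BH3-only proteins bind guardians or effectors and so set the effectors free. Once the effectors form pores, cytochrome c leaves the mitochondrion, the apoptosome assembles and caspases are activated. Much of this control acts on protein stability, cleavage, phosphorylation and location, none of which an array for messenger RNA measures.

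The RNA was from BV-2, a line of mouse microglia, the macrophages that live in the brain, immortalised with a retrovirus and so only a model of those cells. Cells received LPS at 1 µg/mL together with HF at 100 µg/mL (LPS+HF), the same dose of LPS alone, the same dose of HF alone, or neither (control). LPS, the lipopolysaccharide of Gram-negative bacteria, signals through Toll-like receptor 4. HF is the fraction of an Amauroderma rugosum extract (a mushroom) that hexane takes up. All cultures were harvested after 24 h. Each of the 4 groups had 2 single-colour arrays, 8 in all, and nothing in the labels says that the pair of a group came from separate cultures. The p-values therefore measure only the spread between these samples, which may be technical.

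The arrays were not equally good. Repeated probes varied by 48.9% (coefficient of variation) on control replicate 1, against 3.77% to 8.06% on the other 7 arrays. The scanner's quality report marked control replicate 1 and HF replicate 1 for evaluation. The SD over genes of the difference between the replicate arrays was 0.34 log2 for LPS+HF, 0.28 for LPS, 0.49 for HF and 0.99 for control. After a spatial correction, which removed the local unevenness of each array and masked 13.3% of the spots of control replicate 1, the control SD was 0.45. Arrays with HF filled 1 row of the slide and arrays without it the other, and LPS divided the columns in the same way, so HF and slide row, or LPS and slide column, cannot be told apart. The 75th percentile of spot brightness was 346 to 527 on arrays with HF and 247 to 286 on those without. Each array was scaled to that percentile, so levels below are log2 signals relative to it. Under another scaling, to the median of all probes, the median difference of all genes was 0.27 log2 in LPS minus control and 0.32 in HF minus control, against -0.08 and -0.07 here, and the members' differences from control shift with it.

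The cells carried the markers of their label. All 11 microglia and macrophage markers were above background on every array. Their summed linear level, in units of the 75th percentile, was 727 to 802 in LPS+HF, 922 to 951 in LPS, 652 to 657 in HF and 897 to 991 in control. Summed oligodendrocyte markers gave 20.7 to 20.8 in LPS+HF, 35.9 to 39.7 in LPS, 31.7 to 58.5 in HF and 47.2 to 64.8 in control. Endothelial markers gave 13.3 to 14.3 in LPS+HF, 18.6 to 19.4 in LPS, 13.3 to 16.8 in HF and 18.3 to 26.4 in control. For neuron markers the sums were 6.48 to 7.63 in LPS+HF, 9.48 to 10.2 in LPS, 7.26 to 7.70 in HF and 8.86 to 11.4 in control, and for T cell markers 8.77 to 9.94 in LPS+HF, 10.2 to 10.4 in LPS, 8.62 to 9.28 in HF and 6.77 to 7.93 in control. Astrocyte and fibroblast markers summed to less than 1 on every array, and Slc1a3, Syt1, Col1a1, Pdgfra and Cd3g were above background on none. Of the 11 microglia and macrophage markers, 3 fell in LPS+HF minus LPS and 1 fell in HF minus control. In LPS minus control 3 rose, and in LPS+HF minus HF 2 rose. The shares of all genes that passed, in either direction, were 6.25%, 0.882%, 11.1% and 1.28% in that order. Of the markers of other cell types, only the T cell kinase Lck passed, 1.78-fold higher in LPS than in control. The part of these shifts in the members' differences was not tested. LPS acted on the cells: Nos2, the inducible nitric oxide synthase, was 7.25-fold higher in LPS than in control (limma, adjusted p = 0.0019), Il6 at least 56.3-fold and Il1b at least 62.8-fold (adjusted p = 0.00016 and 0.00037). Here "at least" sets a signal against the lowest one that counts as above background, since both genes lay below background in control. Both passed the filter on dim probes through groups with LPS, and their p-values rest on control signals below background.

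**Figure D1:**
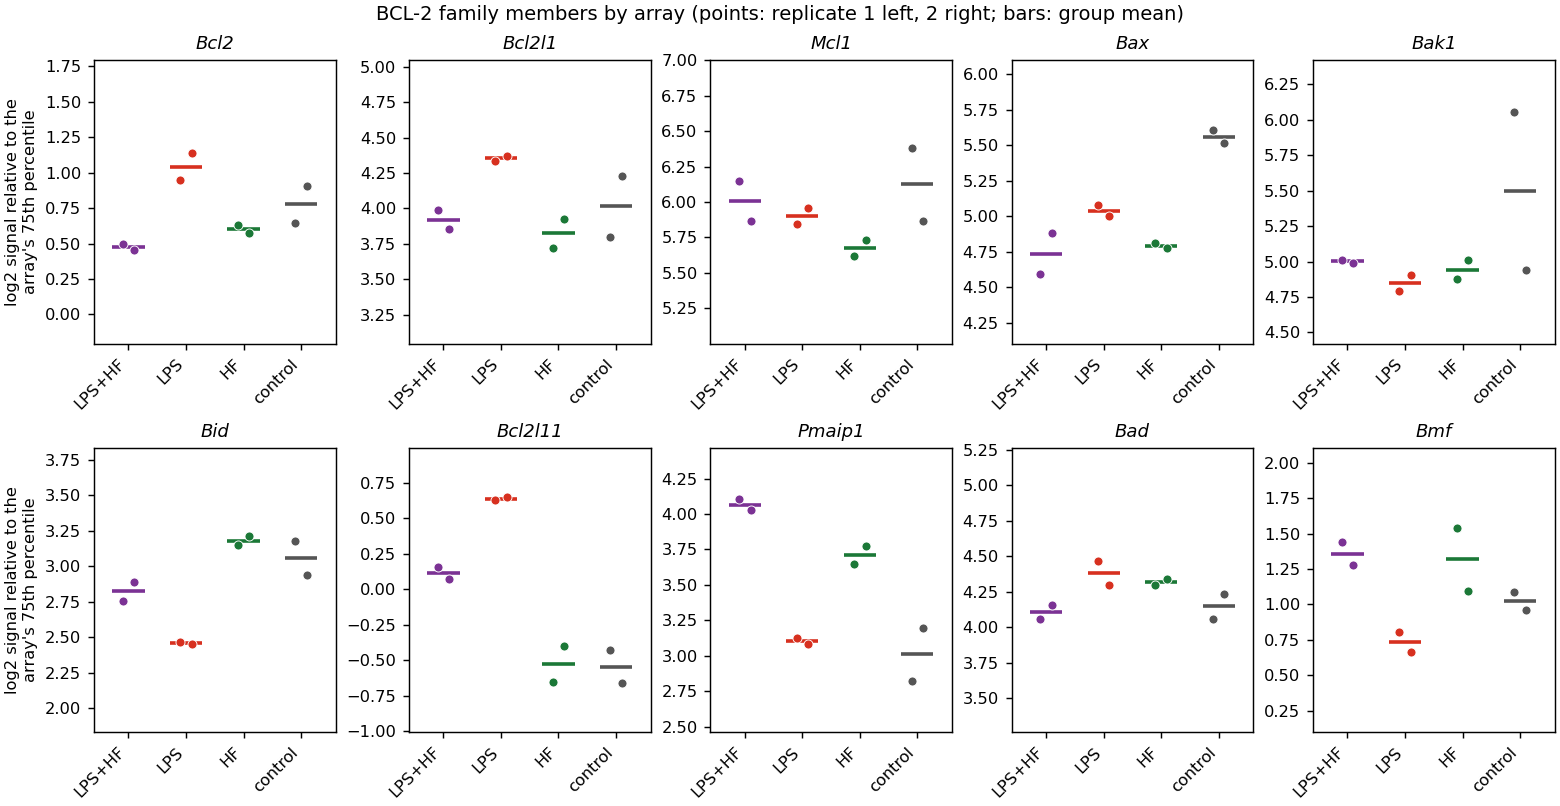
Level of the 10 members on each of the 8 arrays, as log2 signal relative to the array's 75th percentile; points are arrays and bars are group means, in the order LPS+HF, LPS, HF and control, and each panel has its own vertical range. Bcl2l11 is highest in the LPS arrays (0.63 and 0.65), Pmaip1 is highest in the LPS+HF arrays (4.11 and 4.03), and the control arrays of Bak1 lie 1.11 apart.

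In cells that received LPS, Pmaip1 rose with HF. It encodes the BH3-only protein NOXA, which binds the guardian MCL1 and is a classic target of p53. It rose 1.95-fold in LPS+HF over LPS and was the 1 member of 10 that passed, where 6.25% of all genes tested passed in that comparison and 2.99% passed as higher. To pass, a gene needed an adjusted p under 0.05 from limma, fitted to all 8 arrays, two-sided and with the Benjamini-Hochberg method over all genes. The arrays of LPS+HF and LPS did not overlap for 9 of 10 members, 4 above and 5 below. Among all genes, 73.9% did not overlap, 32.7% above and 41.2% below. The median difference of the members was -0.09 log2, against -0.07 for all genes. In a bulk sample, fewer cells that carry a transcript and less of it per cell cannot be told apart.

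With LPS alone, Bcl2l11 rose. It encodes the BH3-only protein BIM, which binds all guardians and can activate the effectors directly. It rose 2.27-fold in LPS over control, again as the 1 member of 10 that passed, where 11.1% of all genes passed and 4.8% passed as higher. LPS and control arrays did not overlap for 8 of 10 members, 4 above and 4 below. Among all genes, 57.1% did not overlap, 24.1% above and 33.0% below. The median difference of the members was -0.06 log2, against -0.08 for all genes.

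With HF alone, 0 of 10 members passed by limma, where 0.882% of all genes did. An unadjusted limma p under 0.05 was found for 2 members, and for 4425 of the 22460 genes. HF and control arrays did not overlap for 6 of 10 members, 3 above and 3 below, against 46.1% of all genes, 20.5% above and 25.6% below. Between LPS+HF and HF, 0 of 10 members passed by limma, where 1.28% of all genes did. Here 1 member had an unadjusted limma p under 0.05, as did 2102 of the 22460 genes. LPS+HF and HF arrays did not overlap for 6 of 10 members, 3 above and 3 below. Among all genes, 53.3% did not overlap, 18.2% above and 35.2% below. The interaction asks whether the response to HF differed with and without LPS. It was passed by 0 of 10 members and 0.0534% of all genes. No member had an unadjusted limma p under 0.05 in it, against 2595 of the 22460 genes. Median differences of the members and of all genes were -0.08 and -0.07 log2 for HF minus control, 0.05 and -0.08 for LPS+HF minus HF, and 0.25 and 0.02 for the interaction. The comparisons share arrays: the LPS arrays serve in LPS+HF minus LPS and in LPS minus control, and the control arrays in both comparisons with control.

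**Figure D2:**
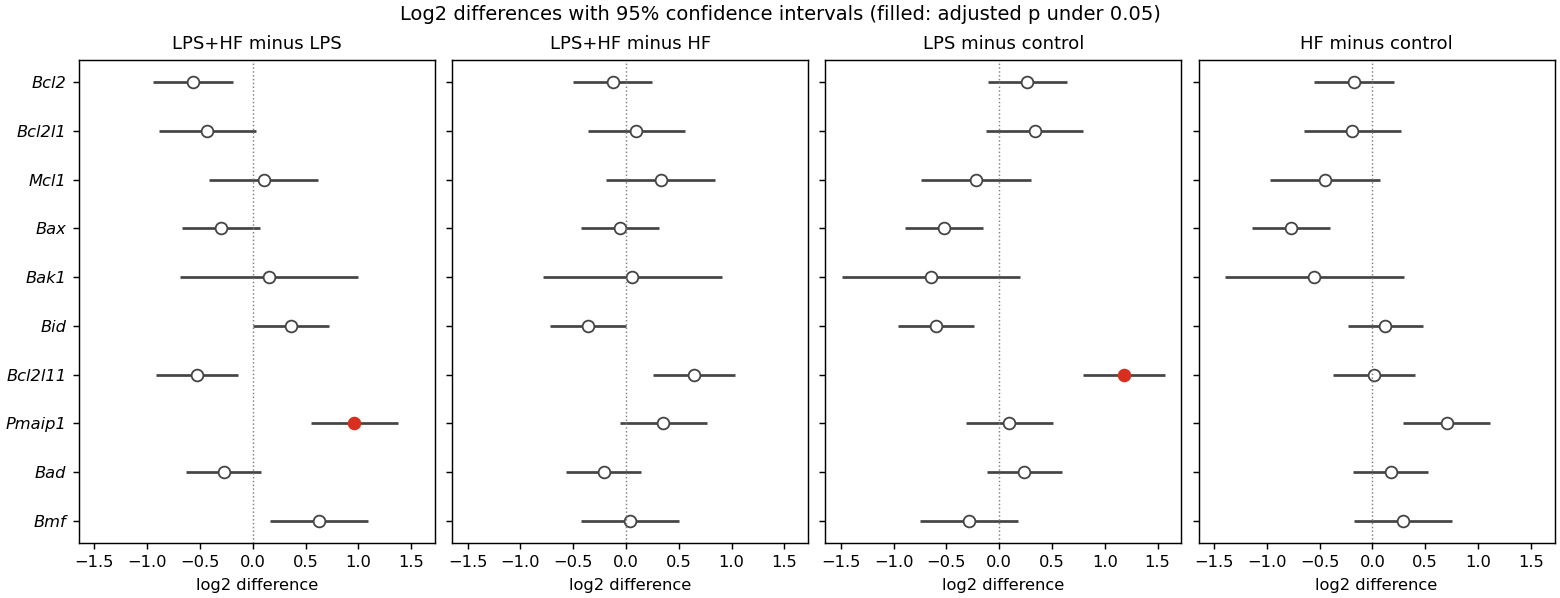
Log2 difference of each member in the 4 comparisons, with the 95% confidence interval of the fit over all 8 arrays; filled points passed at an adjusted p under 0.05. Pmaip1 in LPS+HF minus LPS (0.96) and Bcl2l11 in LPS minus control (1.18) are filled, and the widest intervals are those of Bak1.

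Among the guardians, Bcl2, the founding member and an inhibitor of apoptosis, was at 0.50 and 0.45 in LPS+HF, 0.95 and 1.14 in LPS, 0.63 and 0.58 in HF, and 0.65 and 0.91 in control. Its LPS+HF arrays were the lowest and its LPS arrays the highest of the 8. LPS+HF and LPS differed by -0.57 ± 0.15 log2 (SE, 2 arrays per group), which did not pass (limma, adjusted p = 0.089). LPS and control differed by 0.27 ± 0.15 log2 (adjusted p = 0.29), with both LPS arrays above both control arrays.

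Bcl2l1 encodes BCL-XL, the guardian named for its long isoform, and a short splice form that promotes death. Its brighter probe read 3.99 and 3.86 in LPS+HF, 4.33 and 4.37 in LPS, 3.72 and 3.93 in HF, and 3.80 and 4.23 in control. Both LPS arrays stood above all 6 others. Its second probe read -2.09 and -1.99 in LPS+HF, -1.0 and -1.31 in LPS, -1.93 and -1.95 in HF, and -2.15 and -1.61 in control, with the LPS arrays again on top. On the brighter probe, LPS+HF minus LPS was -0.43 ± 0.19 log2 (limma, adjusted p = 0.23) and -0.88 ± 0.22 on the second (adjusted p = 0.076 over all probes). LPS minus control was 0.34 ± 0.19 log2 (adjusted p = 0.28) and 0.72 ± 0.22 on the second probe (adjusted p = 0.096), so neither probe passed in either comparison. Which of the splice forms either probe reads was not analysed here.

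Mcl1, a guardian with a short-lived protein, showed no separation that passed. It was at 6.15 and 5.86 in LPS+HF, 5.85 and 5.96 in LPS, 5.62 and 5.73 in HF, and 6.38 and 5.87 in control. The HF arrays were the lowest, and the ranges of LPS+HF and LPS overlapped. HF minus control was -0.45 ± 0.21 log2 (limma, adjusted p = 0.29), and LPS+HF minus LPS was 0.10 ± 0.21 (adjusted p = 0.83). The second Mcl1 probe gave -0.34 ± 0.21 and 0.37 ± 0.21 for the same comparisons, and -0.57 ± 0.21 for LPS minus control (adjusted p = 0.136).

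Of the pore-forming effectors, Bax was lower on every treated array than on either control array. It read 4.59 and 4.88 in LPS+HF, 5.08 and 5.00 in LPS, 4.81 and 4.77 in HF, and 5.61 and 5.51 in control. HF minus control was -0.77 ± 0.15 log2 (limma, adjusted p = 0.096) and LPS minus control -0.52 ± 0.15 (adjusted p = 0.082). Neither passed, and after the spatial correction the differences were -0.54 (adjusted p = 0.053) and -0.33 (adjusted p = 0.12). LPS+HF and LPS differed by -0.30 ± 0.15 log2 (adjusted p = 0.29).

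Bak1, the second effector, which resides in the mitochondrial membrane, was close to level on 7 arrays and apart on control replicate 1. It was at 5.01 and 4.99 in LPS+HF, 4.79 and 4.91 in LPS, 4.88 and 5.01 in HF, and 6.05 and 4.94 in control. LPS minus control was -0.65 ± 0.35 log2 (limma, adjusted p = 0.26) and HF minus control -0.55 ± 0.35 (adjusted p = 0.38), with SEs larger than those of the other members. Without control replicate 1, HF minus control was 0.01 log2. Without control replicate 2, which leaves control replicate 1 alone, both differences passed, at -1.20 (adjusted p = 0.0013) and -1.11 (adjusted p = 0.0023), as did the interaction of Bak1 at 1.26 (adjusted p = 0.0054) and of Mcl1 at 0.81 (adjusted p = 0.035), where 35.3% of all genes passed.

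Bid links death receptors to mitochondria, since caspase 8 cleaves it into its active form. It was at 2.76 and 2.89 in LPS+HF, 2.46 and 2.46 in LPS, 3.15 and 3.21 in HF, and 3.18 and 2.94 in control. The LPS arrays were the lowest of the 8, the LPS+HF arrays came next, and HF and control overlapped. LPS minus control was -0.60 ± 0.15 log2 (limma, adjusted p = 0.054), just short of the threshold, and -0.47 after the spatial correction (adjusted p = 0.016). The difference in LPS+HF minus LPS was 0.36 ± 0.15 log2 (adjusted p = 0.20), and LPS+HF minus HF was -0.36 ± 0.15 (adjusted p = 0.54).

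The promoters of Bcl2l11 are shown here because it passed in LPS minus control. RefSeq lists promoters for 9 of the members, 15 in all, and gives Bcl2l11 2 of them on the plus strand of GRCm38.p6, at chr2:128125788-128126087 and chr2:128127325-128127624. Each runs from 250 bases before a gene start to 50 after it, 5′ to 3′. Capitals mark the forkhead (FOXO) motif GTAAACA, reverse TGTTTAC, and the GC box GGGCGG, reverse CCGCCC, both searched on both strands.
Bcl2l11 first promoter: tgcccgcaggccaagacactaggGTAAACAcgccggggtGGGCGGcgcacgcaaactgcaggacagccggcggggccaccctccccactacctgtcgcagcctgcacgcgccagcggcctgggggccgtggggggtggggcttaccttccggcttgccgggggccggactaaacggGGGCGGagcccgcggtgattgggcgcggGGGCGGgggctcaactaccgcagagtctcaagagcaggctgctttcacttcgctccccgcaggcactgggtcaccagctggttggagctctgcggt
Bcl2l11 second promoter: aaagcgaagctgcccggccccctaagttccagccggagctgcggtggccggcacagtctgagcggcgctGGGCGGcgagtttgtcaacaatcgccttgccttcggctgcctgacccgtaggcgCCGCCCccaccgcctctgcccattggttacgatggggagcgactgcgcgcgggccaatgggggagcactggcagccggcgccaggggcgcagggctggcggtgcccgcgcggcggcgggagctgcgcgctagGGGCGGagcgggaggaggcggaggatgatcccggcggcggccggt
The forkhead match lies 227 bases before the gene start in the first promoter and overlaps no GC box, and the second promoter has none. It was the 1 match among the 15 member promoters, against 3.65% of 32851 promoters of all genes. Each Bcl2l11 promoter holds 3 GC boxes. GC boxes stood in 8 of 15 member promoters, from 7 members, against 35.7% of all promoters. The AP-1 motif TGANTCA and the cyclic AMP response element TGACGTCA were found in 0 of 15, against 7.81% and 1.79% of all promoters. These matches describe letters in a window, not sites of binding.

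The brighter Bcl2l11 probe, designed on NM_207680, read 0.16 and 0.07 in LPS+HF, 0.63 and 0.65 in LPS, -0.66 and -0.40 in HF, and -0.43 and -0.66 in control. LPS arrays were the highest, LPS+HF arrays came next, and HF and control overlapped at the bottom. Between LPS and control it differed by 1.18 ± 0.16 log2 (95% confidence interval 0.79 to 1.57), which passed (limma, adjusted p = 0.011), and 1.29 after the spatial correction (adjusted p = 0.001). LPS+HF minus HF was 0.64 ± 0.16 log2 (adjusted p = 0.19), with both LPS+HF arrays above both HF arrays. For LPS+HF minus LPS it was -0.53 ± 0.16 (adjusted p = 0.11), and the interaction was -0.54 ± 0.22 (adjusted p = 0.44). The call in LPS minus control was lost without LPS replicate 1 or without LPS replicate 2, which leave 1 LPS array and let far fewer of all genes pass. With only the 4 arrays compared it was lost too (adjusted p = 0.13, where 0.298% of all genes passed). It was also lost with array weights (adjusted p = 0.11) and with the normexp background correction, which gave 0.62 log2 (adjusted p = 0.28).

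A second Bcl2l11 probe, designed on NM_001284410, had a like value for LPS and another for HF; the difference between the probes was not tested. It read -2.88 and -2.96 in LPS+HF, -2.56 and -3.03 in LPS, -2.89 and -3.11 in HF, and -3.83 and -3.76 in control. All 6 treated arrays lay above both control arrays. The probe counted as above background on all 8 arrays but was dim. Il1b, which lay below background in control, read -3.88 and -4.48 there. LPS minus control was 1.00 ± 0.20 log2, which passed over all probes (limma, adjusted p = 0.031). HF minus control was 0.80 ± 0.20 log2 on this probe (adjusted p = 0.147) and 0.02 ± 0.16 on the brighter one (adjusted p = 0.96). On this probe LPS+HF minus LPS was -0.13 ± 0.20, against the -0.53 above. Which transcripts each probe reads was not analysed here.

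**Figure D3:**
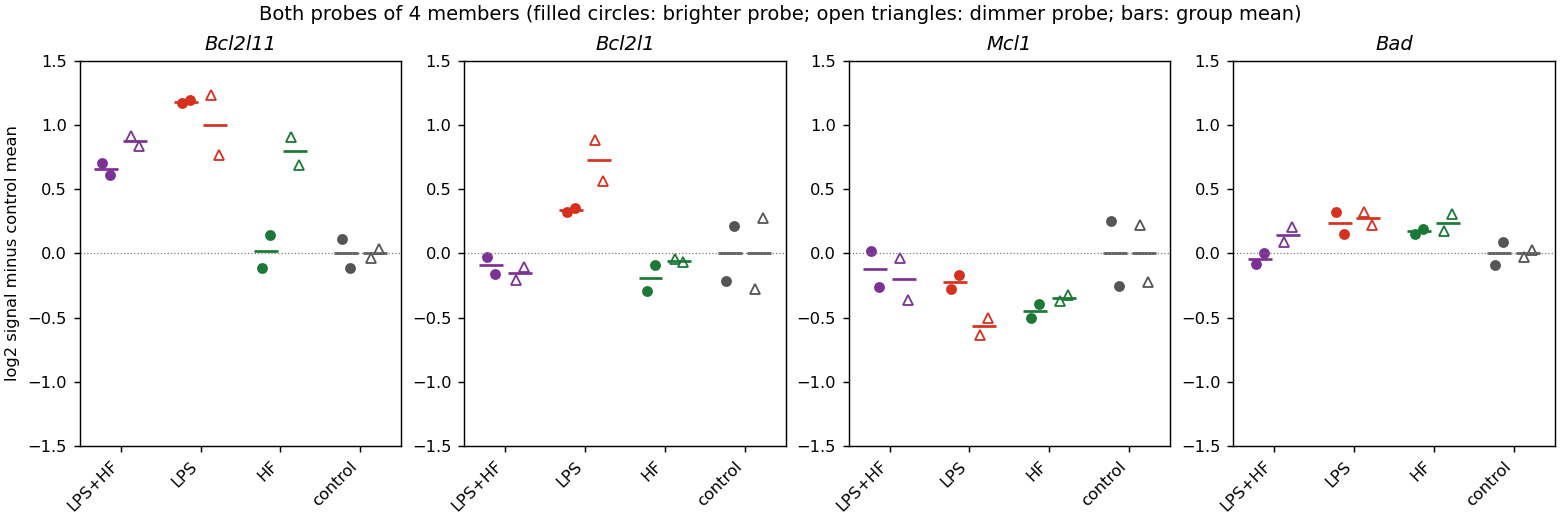
Both probes of the 4 members that have 2, as log2 signal minus the probe's control mean on each array; filled circles are the brighter probe, open triangles the dimmer, and bars group means, in the order LPS+HF, LPS, HF and control. The Bcl2l11 probes part in HF, at 0.02 and 0.80, while both lie near 1 in LPS (1.18 and 1.00).

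Pmaip1 was at 4.11 and 4.03 in LPS+HF, 3.12 and 3.09 in LPS, 3.65 and 3.77 in HF, and 2.82 and 3.20 in control. Both groups with HF lay above both groups without it, with LPS+HF on top, and LPS and control overlapped. The difference between LPS+HF and LPS was 0.96 ± 0.17 log2 (95% confidence interval 0.55 to 1.38), which passed (limma, adjusted p = 0.034). HF minus control was 0.70 ± 0.17 log2 (1.63-fold) and did not pass (adjusted p = 0.13), but passed after the spatial correction, at 0.58 (adjusted p = 0.022). The interaction was 0.26 ± 0.24 log2 (95% confidence interval -0.33 to 0.84, adjusted p = 0.68), so the data did not show a different response to HF with and without LPS. For LPS minus control the difference was 0.09 ± 0.17 log2 (adjusted p = 0.73), and LPS+HF minus HF was 0.35 ± 0.17 (adjusted p = 0.64). The call in LPS+HF minus LPS held in 2 of 8 fits that left out an array, those without a control replicate (adjusted p = 0.0051 for both). It was lost without LPS replicate 1 or 2, LPS+HF replicate 1 or 2, or HF replicate 1 or 2, while the difference stayed between 0.92 and 1.00 log2. Far fewer of all genes passed in each of these fits than over all 8 arrays, so the loss is not particular to Pmaip1. It was also lost with normexp (0.90 log2, adjusted p = 0.17), median scaling (1.11, adjusted p = 0.20), no filter on dim probes (adjusted p = 0.11) and the replicate number as a block (adjusted p = 0.062).

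Bad, a BH3-only protein that growth factor signalling silences by phosphorylation, did not pass in any comparison. Its brighter probe read 4.06 and 4.15 in LPS+HF, 4.47 and 4.30 in LPS, 4.30 and 4.34 in HF, and 4.06 and 4.24 in control. Both LPS+HF arrays lay below both LPS arrays, and both HF arrays above both control arrays. Between LPS+HF and LPS the difference was -0.28 ± 0.14 log2 (limma, adjusted p = 0.31), HF minus control 0.17 ± 0.14 (adjusted p = 0.49), and the interaction -0.45 ± 0.20 (adjusted p = 0.48). The second Bad probe gave -0.13 ± 0.14 and 0.24 ± 0.14 for the first pair of comparisons.

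Bmf, a BH3-only protein that binds the dynein light chain and is known for its part in death after loss of attachment, was lowest with LPS. It was at 1.44 and 1.28 in LPS+HF, 0.81 and 0.66 in LPS, 1.54 and 1.1 in HF, and 1.09 and 0.96 in control. The LPS+HF and HF arrays overlapped, as the top of the range. In LPS+HF over LPS it was 0.62 ± 0.19 log2, 1.54-fold, and did not pass (limma, adjusted p = 0.12). In LPS minus control it was -0.29 ± 0.19 (adjusted p = 0.34) and HF minus control 0.29 ± 0.19 (adjusted p = 0.39).

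How many members passed in LPS+HF minus LPS moved with arrays that are not part of that comparison but enter the shared estimate of the spread. Against 1 member over all 8 arrays, 5 passed without control replicate 1 and 5 without control replicate 2, where 29.2% of all genes passed in each fit. With HF replicate 1 or HF replicate 2 left out, 0 passed by limma, where 1.38% of all genes did. In 7 of 10 members the gap between the control arrays exceeded that in every other group. Over all genes, too, the SD of this gap was largest in control, at 0.99 log2 against 0.28 to 0.49 in the other groups. The part of the control gap in these counts was not tested. With only the 4 arrays compared, 6 of 10 members passed, where 32.9% of all genes did, 15.9% as higher and 17.1% as lower. Bid (adjusted p = 0.047), Pmaip1 (0.0088) and Bmf (0.022) were then higher in LPS+HF. Bcl2 (0.024), Bcl2l1 (0.033) and Bcl2l11 (0.020) were lower in LPS+HF. The same 6 members passed after the spatial correction, where 28.5% of all genes did (14.8% higher and 13.7% lower), with differences of -0.59 for Bcl2, -0.44 for Bcl2l1, 0.38 for Bid, -0.54 for Bcl2l11, 0.95 for Pmaip1 and 0.59 for Bmf. Mcl1, Bax, Bak1 and Bad did not pass in any of the 3 fits.

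**Figure D4:**
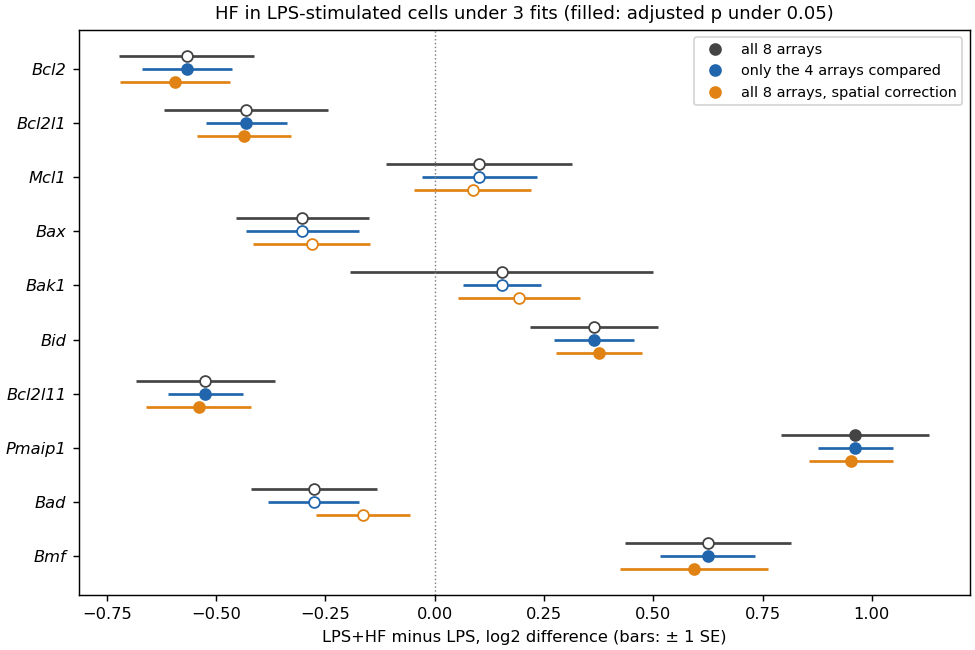
LPS+HF minus LPS for the 10 members, as log2 difference with bars of 1 SE, fitted over all 8 arrays, over the 4 arrays compared, and over all 8 after the spatial correction; filled points passed. The difference of Bad moves most between the fits (-0.28 and -0.16), the SE of Bak1 over all 8 arrays (0.35) is the widest, and 6 members are filled in the other fits against 1 in the fit over all 8 arrays without correction.

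Further counts with control in the comparison also depended on the array. In LPS minus control, Bid passed beside Bcl2l11 after the spatial correction, where 28.9% of all genes passed. Without control replicate 2, which leaves the uneven array as the only control, 6 members and 52.7% of all genes passed in LPS minus control. They were Bcl2 (0.40), Bcl2l1 (0.55) and Bcl2l11 (1.07) higher, and Bax (-0.57), Bak1 and Bid (-0.72) lower. Without control replicate 1, Bcl2l11 (1.30) and Bid (-0.48, adjusted p = 0.042) passed, as did 20.3% of all genes. In HF minus control without control replicate 2, Mcl1 (-0.70), Bax (-0.82), Bak1 and Pmaip1 (0.89) passed, with 45.3% of all genes. After the spatial correction, 1 member passed in HF minus control (10.4% of all genes) and 1 in LPS+HF minus HF, Bcl2l11 at 0.64 (adjusted p = 0.035, 4.91% of all genes). In the interaction, 0 members passed after it, against 3.21% of all genes.

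Of 15 other BCL-2 family genes looked for, 13 had a probe and 9 were tested; Bcl2a1a and Bcl2a1b had no probe here, and Bok, Bcl2l10, Hrk and Bcl2l15 did not pass the filter on dim probes. Bcl2a1d, a guardian of blood cells and a target of NF-kB, passed in all 4 comparisons between groups. It was at 5.29 and 5.09 in LPS+HF, 6.36 and 6.38 in LPS, 3.13 and 2.94 in HF, and 4.51 and 4.37 in control, so no groups overlapped. It was 2.27-fold lower in LPS+HF than in LPS (limma, adjusted p = 0.016) and 2.64-fold lower in HF than in control (adjusted p = 0.024). It was 3.82-fold higher in LPS than in control (adjusted p = 0.0027) and 4.45-fold higher in LPS+HF than in HF (adjusted p = 0.0034). Among the fits that left out an array, the calls in LPS+HF minus LPS and in HF minus control held only without a control replicate. The call in LPS minus control held in each such fit, and that in LPS+HF minus HF in all but the fit without LPS+HF replicate 1. The mouse has near-identical Bcl2a1 copies, so the signal may not be of Bcl2a1d alone.

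Bnip3, a mitochondrial BH3-type protein known for mitophagy and as a target of hypoxia signalling, was at 6.38 and 6.22 in LPS+HF, 4.56 and 4.49 in LPS, 7.08 and 6.88 in HF, and 8.54 and 7.30 in control. It fell 10.5-fold in LPS below control (-3.39 ± 0.38 log2, limma, adjusted p = 0.0067). The size of that fall rests on the control arrays, which lie 1.24 log2 apart: it was 6.84-fold without control replicate 1 and 16.1-fold without control replicate 2. The call was lost without LPS replicate 1 or 2, where far fewer of all genes passed in that comparison. The other Bnip3 probes also passed in LPS minus control, at -2.41 (5.33-fold) and -3.20 log2, with adjusted p = 0.00327 and 0.00139 over all probes. LPS+HF minus LPS was 1.77 ± 0.38 log2 (adjusted p = 0.053), and the other probes gave 1.80 and 1.81 with adjusted p = 0.0122 and 0.0112 over all probes. The interaction was 2.71 ± 0.54 log2 (adjusted p = 0.19), and 2.26 after the spatial correction (adjusted p = 0.0076).

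Bik, a BH3-only protein of the endoplasmic reticulum, read -0.99 and -1.24 in LPS+HF, -0.78 and -0.92 in LPS, -4.52 and -5.40 in HF, and -2.96 and -5.63 in control. It was well above background on the 4 arrays with LPS only, and so passed the filter on dim probes through the groups where it was high. LPS was at least 6.49-fold above control and did not pass (limma, adjusted p = 0.050). Its spot was masked on control replicate 1, so no value with control is given after the correction. Bbc3, the p53 target PUMA, read 2.24 and 2.17 in LPS+HF, 3.05 and 3.0 in LPS, 2.26 and 2.10 in HF, and 1.15 and 2.87 in control, where it was masked on replicate 1. Its difference in LPS+HF minus LPS was -0.82 ± 0.51 log2 (adjusted p = 0.40) and -0.89 after the correction (adjusted p = 0.0036).

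On its brightest probe, none of the remaining other family genes passed in any of the 5 comparisons fitted over all 8 arrays without the correction. For Bcl2l2, the guardian BCL-W, differences on 2 probes ranged from -0.63 in HF minus control to 0.79 in the interaction. Bcl2l13, a mitophagy receptor, had 0.58 ± 0.13 log2 in LPS+HF minus LPS (limma, adjusted p = 0.061), and 0.61 after the correction (adjusted p = 0.0082). Bnip3l, a relative of Bnip3, had 4 probes, which differed in LPS minus control. The brightest gave -0.22 ± 0.18 log2 (adjusted p = 0.42) and the others -0.49, -0.99 and -0.60, of which -0.99 ± 0.17 passed over all probes (limma, adjusted p = 0.0231). That probe read 4.03 and 3.92 in LPS+HF, 3.59 and 3.56 in LPS, 4.26 and 4.34 in HF, and 4.37 and 4.76 in control, with the LPS arrays lowest. Over the 5 comparisons, Bcl2l12 differed by -0.22 to 0.09 log2 and Bcl2l14 by -0.39 to 0.73. Over the 9 tested, 1 rose and 1 fell in LPS minus control (median -0.22 log2), where 11.1% of all genes passed. In HF minus control 1 fell (median -0.39), against 0.882% of all genes. In LPS+HF minus LPS 1 fell (median 0.13), against 6.25%, and in LPS+HF minus HF 1 rose (median 0.06), against 1.28%. The medians of all genes were -0.08, -0.07, -0.07 and -0.08 log2 in that order. None passed in the interaction (median 0.40, against 0.02 for all genes). There 1 had an unadjusted limma p under 0.05, as did 2595 of the 22460 genes.

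**Figure D5:**
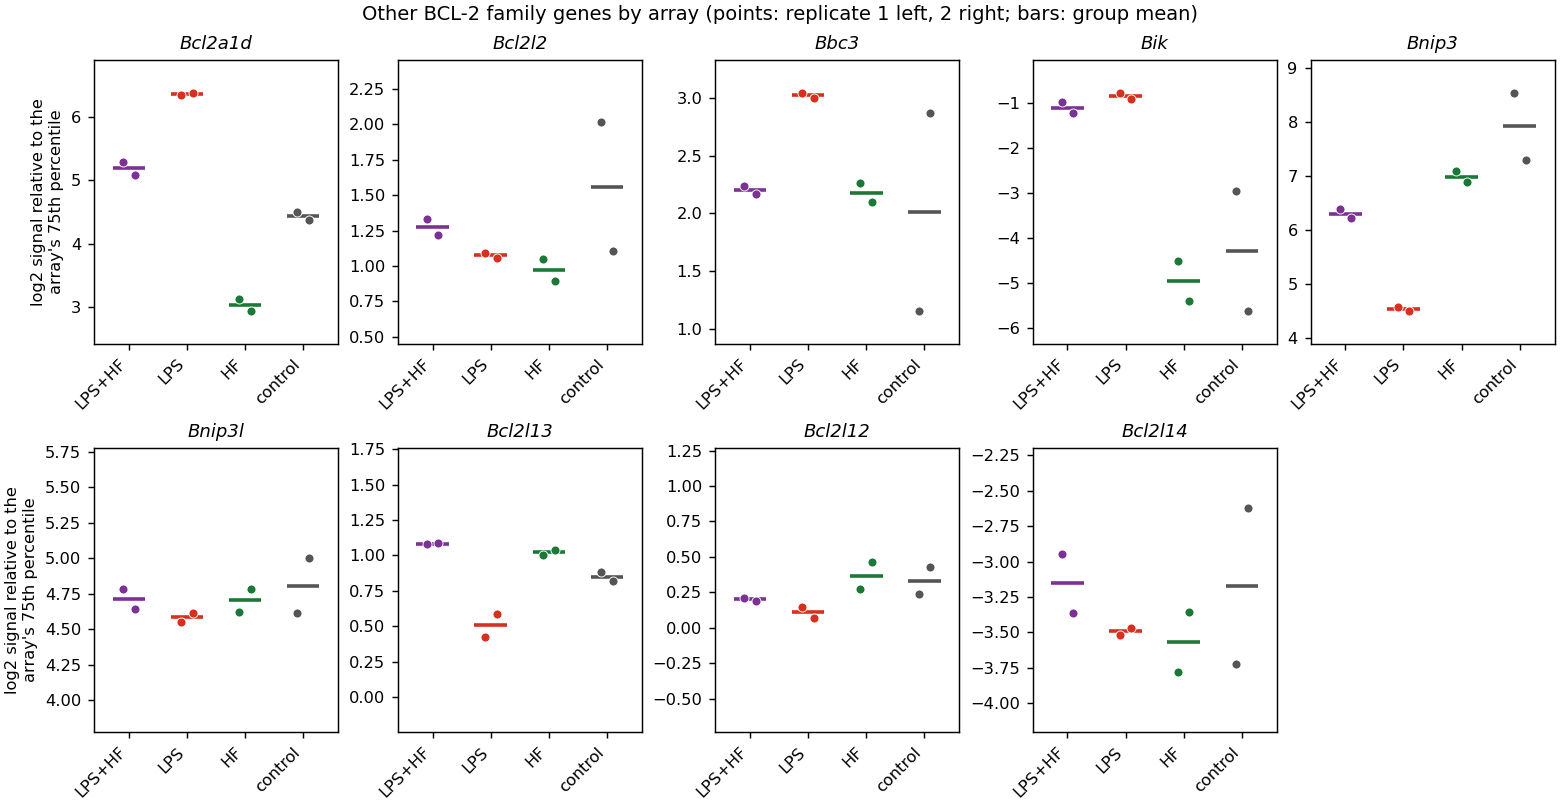
Level of the 9 other BCL-2 family genes tested on each of the 8 arrays, as log2 signal relative to the array's 75th percentile; points are arrays and bars group means, in the order LPS+HF, LPS, HF and control, with a vertical range of its own for each panel. Bcl2a1d separates all 4 groups, Bnip3 is lowest in LPS (4.56 and 4.49), and the control arrays of Bbc3 and Bik lie far apart.

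Downstream of the mitochondria, 17 genes of the apoptosome, the caspases and their inhibitors were tested. In LPS+HF minus LPS, 2 rose, 0 fell and 15 did not pass, where 6.25% of all genes passed and 2.99% as higher. The median was 0.34 log2, against -0.07 for all genes. Apaf1, the scaffold of the apoptosome, was 2.26-fold higher in LPS+HF than in LPS (limma, adjusted p = 0.012), and Birc6, a large inhibitor of apoptosis, 1.61-fold higher (adjusted p = 0.048). Apaf1 was at 0.01 and 0.04 in LPS+HF, -1.15 and -1.16 in LPS, -0.23 and -0.09 in HF, and -0.68 and -0.65 in control. The mitochondrial nuclease Endog (-1.03, adjusted p = 0.046) and the nuclease Dffb (-1.27, adjusted p = 0.018) were among those that passed in LPS minus control, where the median was 0.13, against -0.08 for all genes. Of the 8 fits that left out an array, the call held in 4 for Apaf1 and in 2 each for Birc6, Endog and Dffb. None of the 17 passed in HF minus control (median 0.42), LPS+HF minus HF (median 0.02) or the interaction (median -0.08). In that order, 4, 2 and 1 had an unadjusted limma p under 0.05. Of the 22460 genes, 4425, 2102 and 2595 did.

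Upstream, 10 of 12 death receptor pathway genes were tested. Fas, a death receptor, was 22.4-fold higher in LPS than in control (limma, adjusted p = 0.0004) and 15.8-fold higher in LPS+HF than in HF (adjusted p = 0.0007). Tnfrsf10b, the mouse TRAIL receptor, was 2.05-fold higher in LPS than in control (adjusted p = 0.015). Fadd, the adaptor that joins Fas to caspase 8, was 2.05-fold higher in LPS+HF than in LPS (adjusted p = 0.027). That call was lost without LPS replicate 1 or 2, as was every call in that comparison. In all, 1 of the 10 rose in LPS+HF minus LPS, 1 in LPS+HF minus HF and 2 in LPS minus control, where 6.25%, 1.28% and 11.1% of all genes passed. No gene of this list fell, and none passed in HF minus control or the interaction. In each of these, 1 of the 10 had an unadjusted limma p under 0.05. Of the 22460 genes, 4425 and 2595 did. Medians were 0.15 log2 in LPS+HF minus LPS, 0.14 in LPS+HF minus HF, -0.05 in LPS minus control and 0.08 in HF minus control.

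Among 26 tested genes that act on BCL-2 family proteins or transcripts, 2 rose and 1 fell in LPS+HF minus LPS, where 6.25% of all genes passed. The median was 0.20 log2, against -0.07 for all genes. Trp53, the tumour suppressor p53, was 2.87-fold higher in LPS+HF than in LPS (limma, adjusted p = 0.015), and Huwe1, a ubiquitin ligase that marks MCL1 for destruction, 2.16-fold higher (adjusted p = 0.032). Ddit3, the stress transcription factor CHOP, was 13.2-fold lower in LPS+HF than in LPS (adjusted p = 0.0057) and 12.2-fold higher in LPS than in control (adjusted p = 0.0013). Without LPS replicate 1 or 2, the calls of Trp53, Huwe1 and Ddit3 in LPS+HF minus LPS were lost, as was every call in that comparison. Ddit3 read 0.82 and 0.35 in LPS+HF, 4.36 and 4.26 in LPS, 0.22 and 0.17 in HF, and 0.91 and 0.49 in control. In LPS minus control 3 rose and 2 fell, where 11.1% of all genes passed, with a median of 0.11, against -0.08 for all genes; beside Ddit3, the kinase Pim1 was 6.19-fold higher (adjusted p = 0.015), on a spot masked on control replicate 1, and 2.08 log2 higher without that array. The kinase Pim3, which phosphorylates BAD, was 2.71-fold lower in LPS than in control (adjusted p = 0.0043) and 2.33-fold lower in LPS+HF than in HF (adjusted p = 0.016). Dynll1, a dynein light chain, was at least 4.33-fold lower in LPS than in control (adjusted p = 0.019), on a probe below background in LPS. In LPS+HF minus HF 0 rose and Pim3 alone fell, with a median of -0.04. None passed in HF minus control (median 0.25) or the interaction (median -0.04). In that order, 8 and 5 of the 26 had an unadjusted limma p under 0.05, as did 4425 and 2595 of the 22460 genes.

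For the members that passed, the genes with the most similar profile were sought by the root mean square difference of centred log2 values over the 8 arrays. The nearest to Bcl2l11 were Calhm6, of a family of ion channels, at 0.0822, and Nrp2, a receptor for semaphorins, at 0.0846. The nearest to Pmaip1 were Gstp3, of the glutathione transferases, at 0.0736, and Ptbp2, a splicing regulator, at 0.0821.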

How the data were processed

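Messenger RNA of 8 BV-2 samples was measured on single-colour Agilent arrays, all on 1 slide and from 1 scan. The deposited intensity values were made, per the file headers, by Agilent Feature Extraction 11.5.1.1, which subtracted background and removed trends. The authors' deposited matrix holds log2 values, which were found to equal those signals after scaling at the 75th percentile and centring of each probe (median difference 0.0018); its columns had medians between -0.11 and 0.19.

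Unmarked spots of a probe were averaged as log2 and shifted to the 75th percentile of the 55681 probes that are not controls. The filter on dim probes kept 30345, each flagged well above background, per the deposited flags, on both arrays of a group, and the brightest one stood for a gene. Of the 55681, 28026 (50.3%) matched a RefSeq symbol; others kept the file's name. limma 3.58.1 (R 4.3.3) fitted the group means over 8 arrays (4 residual and 2.04 prior degrees of freedom), with Benjamini-Hochberg adjustment over 22460 genes and 5 comparisons made separately. Leaving out an array leaves its partner with the spread of the other groups. The fit was tested on simulated data for LPS+HF minus LPS, with 200 of 22460 genes changed. It found 67.35% of 4-fold changes and 0.75% of 2-fold changes. A gene that did not pass may therefore still have changed by 2-fold, and even 4-fold changes were not all found. These shares hold for that comparison and that number of changed genes, and may differ in the data. Python 3.11.15, numpy 2.4.6, pandas 2.3.3 and matplotlib 3.10.9 did the rest. The number of arrays limits the precision.

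Alternatives were normexp background correction (offset 50, on median pixels, with quantile normalization), quantile normalization, median scaling over all and over the kept probes (the last chosen after seeing the data), the authors' matrix, other filters, other rules for several probes, a trended variance, a replicate block, fewer arrays, array weights and a spatial correction. The spatial correction subtracted local deviations over windows 30 rows by 15 columns wide and left out those dimmed over 4-fold. A slide block was not run, with 1 slide. Correlations of the deviations of same-numbered replicates ran from -0.09 to 0.27, the highest between control and HF. They do not settle whether the numbers pair the samples.

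Members and lists were chosen with earlier results of these data known. Named genes are all members and other family genes, up to 4 passed genes per further list and comparison, 2 nearest genes for each passed member, and Nos2, Il6 and Il1b. The result of 1 gene of the apoptosome and caspase list in LPS minus control is not reported here.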

Additional observations from a re-analysis of the deposited data

How the results depend on the processing

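With 2 arrays a group and an uneven control array, counts of members that passed moved with the fit. In LPS minus control the count was 1, but 0 with normexp, with only the arrays compared and with array weights, 2 with probes above background on all arrays, with probes of a gene averaged, with the trended and robust variance and after the spatial correction, and 0 to 6 without 1 array. In HF minus control it was 0, but 1 after the spatial correction and 0 to 4 without 1 array. In LPS+HF minus LPS it was 1, but 0 with normexp, with median scaling over all probes, without the filter on dim probes and with the replicate block, and 6 with only the arrays compared, after the spatial correction, without both arrays marked by the scanner and with array weights, and 0 to 5 without 1 array. In LPS+HF minus HF it was 0, but 1 after the spatial correction and with array weights; without 1 array it stayed at 0. In the interaction it was 0, and 0 to 2 without 1 array. The block changed no other count, and whether the numbers pair the samples is not known. Only the arrays compared gives no interaction. In the settings given next, the number of all 22460 genes that passed moved too, so these counts are not particular to the members. Before any alternative, 672 passed as higher and 732 as lower in LPS+HF minus LPS. With normexp they were 71 and 165, and with median scaling 89 and 111. With array weights they were 3930 and 4252, and without both marked arrays 3567 and 3830. In LPS minus control, 1078 and 1424 became 392 and 617 with normexp and 137 and 63 with array weights. The causes were not tested.

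Of the members' 1140 values under 23 alternatives, 37 changed sign, and none of these had passed in either fit. With normexp, LPS minus control became -0.21 for Bcl2, -0.10 for Bcl2l1, 0.16 for Bak1, -0.39 for Pmaip1, -0.028 for Bad and 0.27 for Bmf. HF minus control became 0.10 for Bak1, -0.27 for Bcl2l11 and -0.084 for Bad, and the interaction 0.035 for Bcl2, 0.14 for Bcl2l1 and -0.15 for Bmf. With median scaling, LPS minus control became 0.13 for Mcl1 and 0.056 for Bmf, HF minus control 0.21 for Bcl2 and 0.19 for Bcl2l1, and LPS+HF minus HF 0.057 for Bax. With the mean over probes, LPS+HF minus HF of Bcl2l1 became -9.0e-05. After the spatial correction, LPS minus control became -0.021 for Pmaip1 and 0.041 for Bmf. Without both marked arrays, LPS minus control became 0.033 for Mcl1 and -0.094 for Pmaip1, HF minus control 0.070 for Bak1, and LPS+HF minus HF -0.0043 for Bcl2l1 and -0.0076 for Bak1. Without 1 array, LPS minus control ran from -0.48 to 0.033 for Mcl1 and from -0.094 to 0.28 for Pmaip1. HF minus control ran from -1.11 to 0.0051 for Bak1, from -0.41 to 0.024 for Bcl2l1 and from -0.11 to 0.14 for Bcl2l11. LPS+HF minus HF ran from -0.0076 to 0.12 for Bak1, -0.20 to 0.086 for Bax, -0.0043 to 0.20 for Bcl2l1 and -0.18 to 0.26 for Bmf. LPS+HF minus LPS ran from -0.040 to 0.24 for Mcl1. Over all genes, the higher share of calls in LPS minus control was 43.1%, but 68.6% under median scaling; in HF minus control it was 16.2%, but 29.4% under quantile normalization and 32.4% under median scaling; in LPS+HF minus HF it was 70.7%, but 82.6% under median scaling.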
